A study of Mus musculus with 6 samples.

Results

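B-cell identity factors and plasma cell factors were described in splenic B cells with and without CpG DNA. The 9 genes were Pax5, Ebf1, Bach2, Bcl6, Pou2af1 and Pou2f2, which belong to the B-cell programme, and Prdm1, Xbp1 and Sdc1, which belong to the plasma cell programme. They were taken by symbol from the 23420 genes in the files, and all 9 were found. All 9 were also among the 11233 genes tested, for which at least 3 of the 6 samples exceeded the value of 10 reads. The lowest value of any of the 9 was worth about 230 reads, so none passed this filter through one group only.

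B cells were purified with beads from spleens of wild-type BALB/c mice aged 7 to 11 weeks. For each sample, 10 M cells at 10 M per ml were cultured for 4 hours with CpG ODN 1826, a synthetic DNA that activates TLR9, at 10 μg/ml, or were left unstimulated. There were 3 CpG-stimulated and 3 unstimulated samples, and the labels give 3 mice for each sample. Whether both samples of a replicate number shared mice is not resolved here. The main fit took the 6 samples as unpaired, and a fit with the replicate number as a block is given as an alternative. In each group replicates 1 and 2 were labelled female and replicate 3 male. Expression was measured by mRNA sequencing and is given as log2 CPM, where CPM are read counts scaled to library size, after quantile normalization. The most common value was read as that of a gene without reads, which voom sets at 0.5 reads; it corresponds to a library of 17.8 M reads, and the limit of detection was set at 3 reads, worth -2.34. These figures cover counting error only. Through quantile normalization the samples have almost equal distributions, with sums from 992384 to 1012396 CPM, so the depth of single samples cannot be read from the values and a change in total RNA per cell cannot be seen.

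EBF1 and PAX5 set up and maintain the B-cell programme; both activate B-cell genes, and PAX5 also represses genes of other lineages. OCT-2, the product of Pou2f2, binds the octamer motif of immunoglobulin promoters, and OCA-B, the product of Pou2af1, is its coactivator. BCL6 and BACH2 are repressors that hold back Prdm1, whose product BLIMP-1 shuts down the B-cell programme during plasma cell differentiation, while XBP1 expands the secretory apparatus and syndecan-1 (CD138), encoded by Sdc1, marks the plasma cell surface.

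Bcl6 and Pou2f2 were higher in CpG-stimulated B cells, and Pou2af1, Bach2, Ebf1, Sdc1, Xbp1 and Pax5 were lower. Prdm1 was not called in either direction. With limma and Benjamini-Hochberg adjustment over all tested genes, at a false discovery rate (FDR) under 0.05, 2 of the 9 genes were thus called higher, where 37.6% of the tested genes were, and 6 were called lower, where 36.7% were. The groups did not overlap in the same 2 genes upward (39.1% of the tested genes) and the same 6 downward (38.6%). With an FDR under 0.05, a log2FC (CpG-stimulated minus unstimulated) below -1 was reached by 3 genes (15.3% of the tested genes). A log2FC above 1 at this FDR was reached by 2 genes (15.8%). Bcl6 was just past this value and lay under it without CpG-stimulated replicate 2 (0.89), unstimulated replicate 1 (0.98) or both samples numbered 2 (0.92), while Sdc1 passed -1 without CpG-stimulated replicate 2 (-1.01), unstimulated replicate 2 (-1.04) or both (-1.12). The median log2FC of the 9 genes was -0.70 against 0.00 for all tested genes, and the median size regardless of sign was 1.03 against 0.64. The 9 genes and the lists below were chosen with earlier results of these data known, so such contrasts are descriptions only. Most tested genes were called in one direction or the other after CpG, so a call by itself does not set these genes apart. In these bulk samples, fewer cells with a transcript and less of it per cell cannot be told apart.

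**Figure D1:**
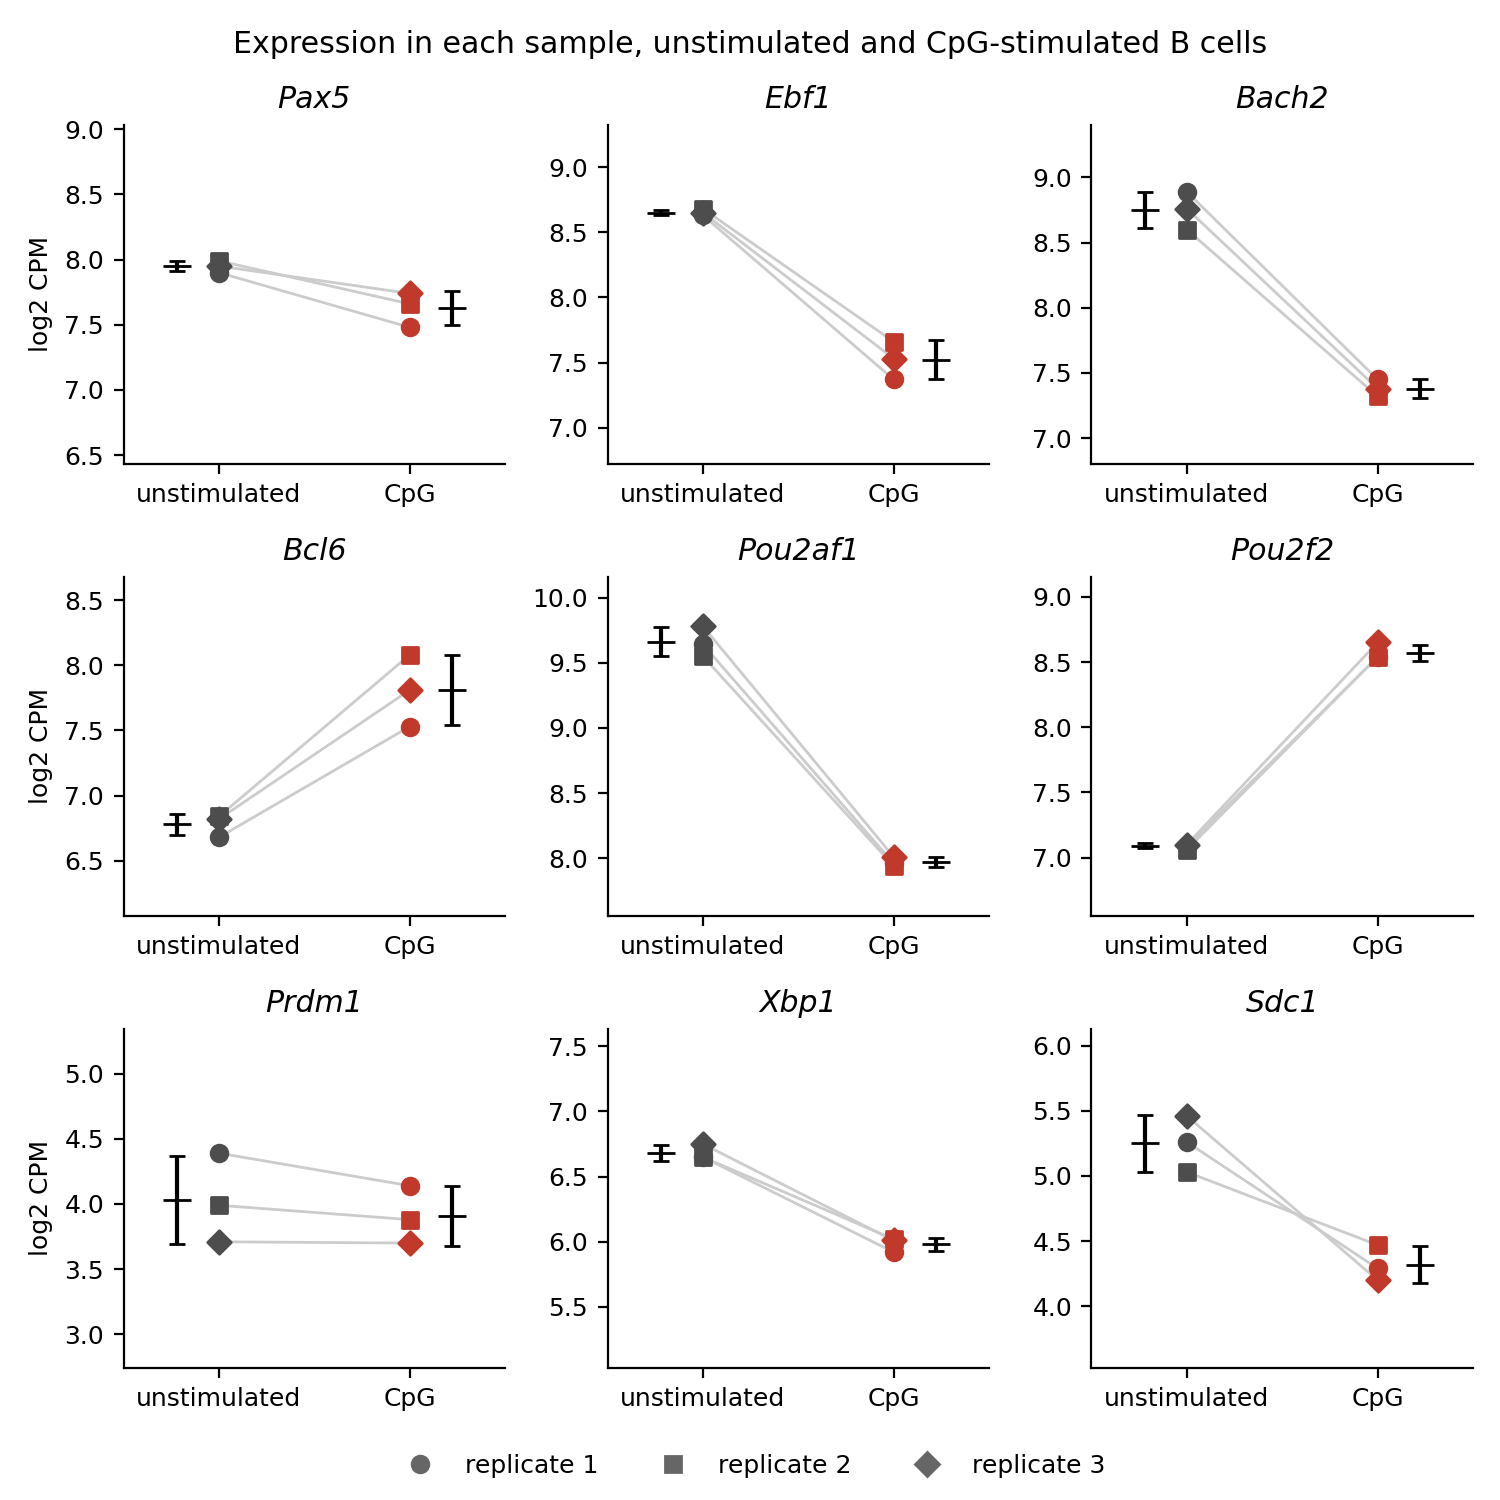
Expression of the 9 genes in log2 CPM in each unstimulated (grey) and CpG-stimulated (red) sample, with markers for the replicate number, lines joining samples of the same number, and bars for the mean ± SD of 3 samples; each vertical axis spans the same range of log2 CPM. Stimulated samples lie below all unstimulated samples for Pax5, Ebf1, Bach2, Pou2af1, Xbp1 and Sdc1, above them for Bcl6 and Pou2f2, and overlap them for Prdm1.

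Among the factors that establish the B-cell programme, Ebf1 was at 7.37, 7.66 and 7.53 log2 CPM in CpG-stimulated replicates 1, 2 and 3, and at 8.63, 8.68 and 8.65 in the unstimulated ones. The unstimulated samples were nearly level, and every stimulated sample lay well below them. Ebf1 had a log2FC of -1.13 (standard error 0.08, limma with Benjamini-Hochberg FDR = 4.88e-07), or 2.19-fold lower expression. Pax5 was at 7.48, 7.66 and 7.74 with CpG and at 7.90, 7.99 and 7.95 without. Its groups also did not overlap, but the gap between them was only 0.17. The log2FC of Pax5 was -0.32 (95% confidence interval -0.49 to -0.16, limma with Benjamini-Hochberg FDR = 0.0024), which was smaller in size than that of most tested genes (28.1% had a smaller one).

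Partner factors of the B-cell programme, such as E2A, Ikaros and PU.1, were mostly lower as well. Of 13 such genes, all tested, 11 were called lower (36.7% of all tested genes were), 1 higher (37.6%) and 1 was not called, with a median log2FC of -0.85 against 0.00 for all tested genes. This list, too, was chosen with earlier results known, so the contrast does not show that it stands out. Ets1, a factor that restrains plasma cell differentiation, fell from 10.82 ± 0.13 to 8.26 ± 0.18 log2 CPM (mean ± SD of 3 samples in each group). Mef2c fell from 9.77 ± 0.12 to 7.53 ± 0.07, and Ikzf3, which encodes Aiolos, from 8.54 ± 0.10 to 6.91 ± 0.13 (SD, n = 3). Irf8 was the one partner that rose, with a log2FC of 1.65, from 9.18 ± 0.09 to 10.83 ± 0.06 (SD, n = 3). Foxp1 was nearest to 0, with a log2FC of -0.06 (limma with Benjamini-Hochberg FDR = 0.525).

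Genes that PAX5 and EBF1 are known to activate were called in both directions, as tested genes were in general (37.6% higher and 36.7% lower). Of 14 listed genes, 12 were tested. Of these, 5 were called higher, 4 lower and 3 were not called, and their median log2FC was -0.07. With the replicate number as a block, 5 were called lower. Cd22, an inhibitory receptor of B cells, fell from 8.50 ± 0.06 to 6.10 ± 0.23 log2 CPM (SD of n = 3). The signalling chains of the B-cell receptor also fell, Cd79a with a log2FC of -1.62 and Cd79b with one of -1.17. Fcer2a, which encodes CD23, rose by contrast from 8.36 ± 0.04 to 9.19 ± 0.13 (SD, n = 3), a log2FC of 0.83. Lef1 had a log2FC of -0.05 (limma with Benjamini-Hochberg FDR = 0.789). The genes left untested were Vpreb1 and Igll1, which encode the surrogate light chain of pre-B cells; their means were -4.89 and -4.76, under the limit of detection.

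Of 6 genes that PAX5 is known to repress, 4 were tested; 1 was called higher (37.6% over all tested genes) and 2 lower (36.7%), with a median log2FC of -0.57, which was -0.13 with no filter on low values. One of the lower genes, Csf1r, passed the filter through the unstimulated samples only, with -2.98, -1.52 and -1.45 log2 CPM with CpG and -0.67, -0.46 and 0.00 without. It was also called with no filter, but not without unstimulated replicate 3 (log2FC -1.42) or both samples numbered 3 (-1.69), and was not tested with 10 reads' worth required in all samples, where the median of the list was -0.27. Flt3, a cytokine receptor of early progenitors, was the one that rose, from 3.58 ± 0.12 to 4.91 ± 0.26 log2 CPM (SD of n = 3). Igj, the older symbol of Jchain, which encodes the joining chain of secreted antibodies, fell from 9.63 ± 0.32 to 8.76 ± 0.23 (SD, n = 3), a log2FC of -0.87. Notch1 was not called at a log2FC of -0.27 (FDR = 0.0592), but was called with the replicate number as a block (FDR = 0.00623), without CpG-stimulated replicate 1 (log2FC -0.33) and without unstimulated replicate 3 (-0.34), all by limma with Benjamini-Hochberg adjustment.

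**Figure D2:**
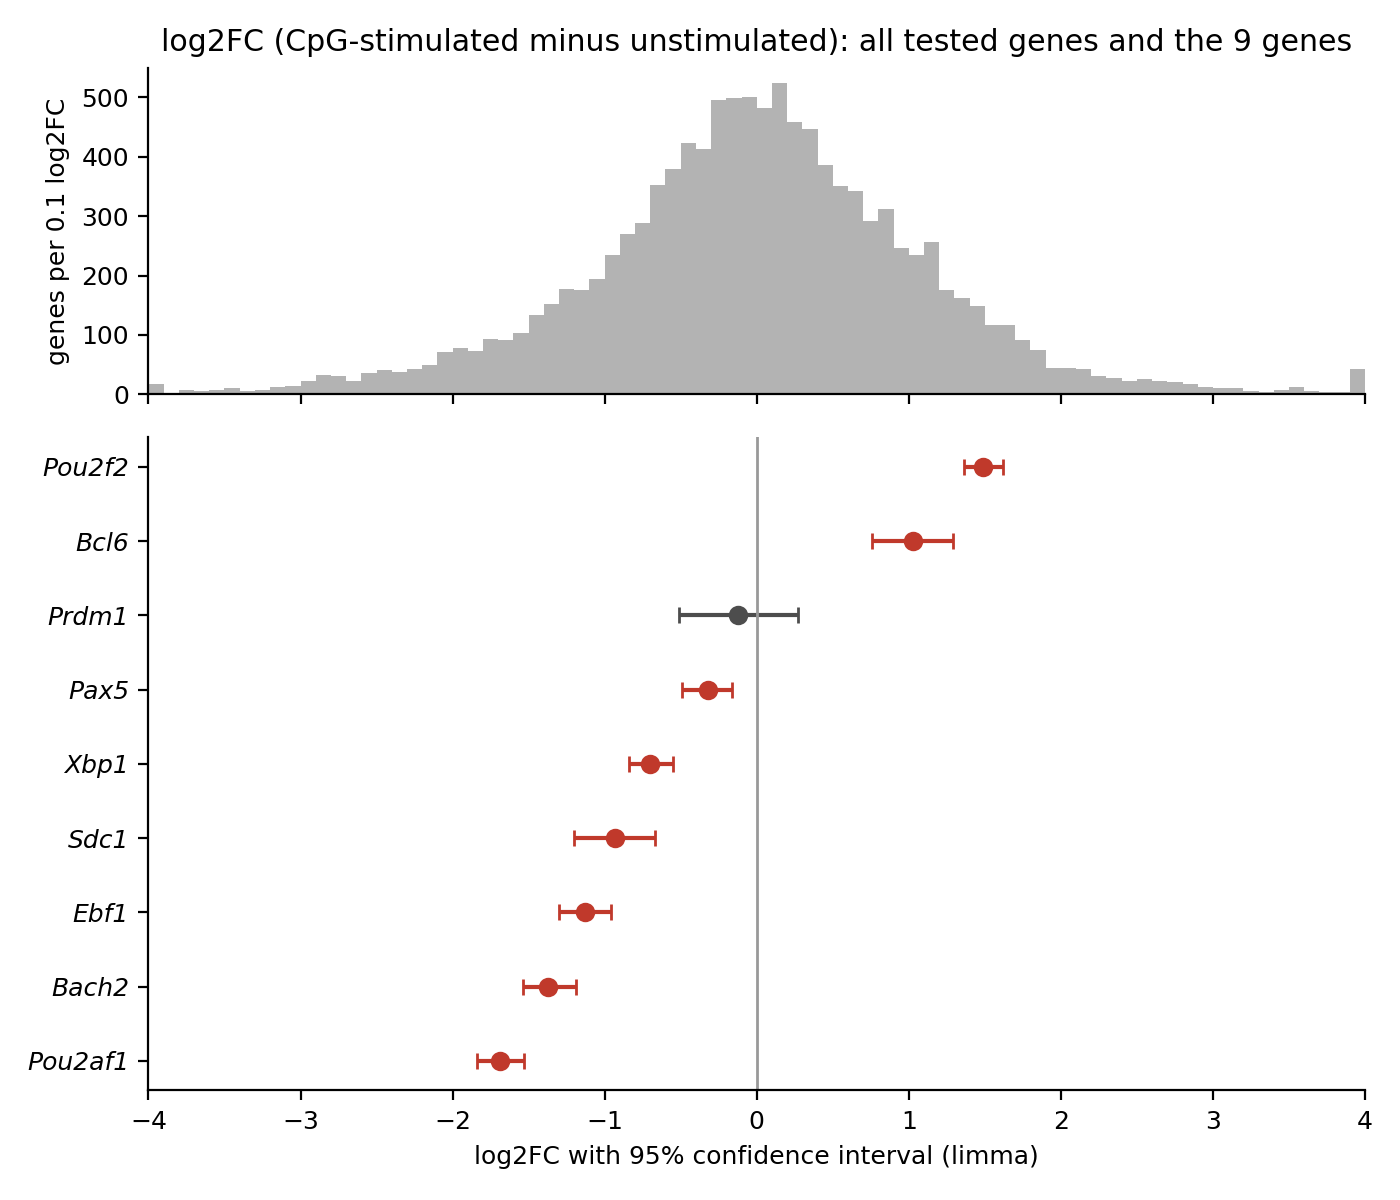
Distribution of the log2FC over the 11233 tested genes (top; values beyond 4 in either direction are in the end bins) and the log2FC of the 9 genes with 95% confidence intervals from limma, 3 samples per group (bottom; red, FDR under 0.05). Pou2f2 and Bcl6 lie at 1.49 and 1.03, Prdm1 has an interval across 0, and the other genes run from -0.32 for Pax5 to -1.69 for Pou2af1.

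The octamer factor and its coactivator moved in opposite directions. Pou2f2 was at 8.54, 8.54 and 8.65 log2 CPM in CpG-stimulated replicates 1, 2 and 3, and at 7.09, 7.06 and 7.10 in the unstimulated ones. Both groups were tight, and all stimulated samples lay at least 1.43 above the unstimulated ones. The log2FC of 1.49 (standard error 0.06, limma with Benjamini-Hochberg FDR = 2.9e-08) is a 2.80-fold rise, and 7.36% of tested genes had a higher log2FC. Pou2af1 was at 7.96, 7.94 and 8.01 with CpG and at 9.64, 9.55 and 9.78 without. The groups were again far apart, in the other direction. Its log2FC was -1.69 (standard error 0.07, limma with Benjamini-Hochberg FDR = 3.61e-08), which left 31.0% of the unstimulated level, and 6.45% of tested genes had a lower log2FC.

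Per kb of the longest coding transcript, the log2 ratio of Pou2f2 to Pou2af1 was -0.90, -0.88 and -0.84 in the stimulated samples and -4.03, -3.96 and -4.15 in the unstimulated samples. The ratio thus shifted by 3.18, or 9.04-fold, toward Pou2f2, and Pou2af1 still had the higher level per kb in every sample. This shift is a description and was not tested. Pou2f1, which encodes the widely expressed octamer factor OCT-1, fell from 7.08 ± 0.10 to 6.45 ± 0.04 log2 CPM (SD of n = 3), a log2FC of -0.63. Pou2f3 was at the value of no read in all 6 samples. The 9 listed immunoglobulin constant genes were not matched by symbol and are not analysed here.

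Of the repressors that hold back plasma cell differentiation, Bcl6 was higher and Bach2 lower after CpG. Bcl6 was at 7.53, 8.08 and 7.81 log2 CPM in CpG-stimulated replicates 1, 2 and 3, and at 6.68, 6.84 and 6.82 in the unstimulated ones. The stimulated samples were more spread, with replicate 2 the highest, but none reached down to the unstimulated ones. The log2FC was 1.03 (95% confidence interval 0.76 to 1.29, limma with Benjamini-Hochberg FDR = 2.33e-05), a 2.04-fold rise. Bach2 was at 7.45, 7.32 and 7.38 with CpG and at 8.89, 8.60 and 8.76 without. Here every stimulated sample lay below every unstimulated sample, with a gap of 1.15 between the groups. Bach2 had a log2FC of -1.37 (standard error 0.08, limma with Benjamini-Hochberg FDR = 1.95e-07), or 2.58-fold lower expression.

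Per kb, the log2 ratio of Bcl6 to Bach2 was 1.42, 2.09 and 1.76 in the stimulated samples and -0.87, -0.43 and -0.61 in the unstimulated samples. Bach2 was thus the more abundant of the pair per length without CpG and Bcl6 with it, a shift of 2.39 that was not tested. Bcl6b, the paralog of Bcl6, rose from 0.57 ± 0.25 to 2.15 ± 0.18 log2 CPM (SD of n = 3), at a far lower level. Bach1, the paralog of Bach2, had a log2FC of 0.25 (FDR = 0.0125); its call was lost without unstimulated replicate 2 (log2FC 0.22) and without both samples numbered 2 (0.19), in limma with Benjamini-Hochberg adjustment.

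BCL6 acts through corepressors and is the central factor of germinal centre B cells. Of 9 corepressor and germinal centre genes, 8 were tested; 3 were called higher (37.6% over all tested genes), 2 lower (36.7%) and 3 were not called, and the lower count was 1 without unstimulated replicate 2 or 3 and in 3 further alternatives. Bcor, the BCL6 corepressor, rose from 6.37 ± 0.03 to 7.80 ± 0.15 log2 CPM (SD of n = 3). Hdac3 rose slightly, with a log2FC of 0.34, whereas the corepressor Ncor1 fell by 0.43 on the log2 scale. Mef2b, a factor of germinal centre B cells, was low in both groups and had a log2FC of -0.26 (limma with Benjamini-Hochberg FDR = 0.242). BACH proteins bind DNA together with small MAF proteins. Of 5 partners and relatives of BACH2, 2 were called higher (37.6% over all tested genes), 1 lower (36.7%) and 2 were not called, with a median log2FC of 0.06 that ran from -0.07 to 0.23 under the alternatives. Mafk fell from 8.46 ± 0.13 to 7.60 ± 0.21 (SD, n = 3), and Maff had a log2FC of 0.06 (FDR = 0.631). Mafg had one of 0.27 (FDR = 0.0145), whose call was lost without unstimulated replicate 3 (0.19) and without both samples numbered 1 (0.27) or 3 (0.23), by limma with Benjamini-Hochberg adjustment.

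Prdm1 was at 4.14, 3.88 and 3.70 log2 CPM in CpG-stimulated replicates 1, 2 and 3, and at 4.39, 3.99 and 3.71 in the unstimulated ones. The groups overlapped, and in both of them replicate 1 was the highest and replicate 3 the lowest. The differences within a replicate number were -0.25, -0.11 and -0.01. The log2FC was -0.12 with a 95% confidence interval of -0.51 to 0.27 (limma with Benjamini-Hochberg FDR = 0.548), an interval that includes 0 and changes in both directions. Without unstimulated replicate 1 the log2FC was 0.06, and without both samples numbered 1 it was -0.058. The values were worth 230 to 372 reads, well above the limit of detection. Per kb, the log2 ratio of Bcl6 to Prdm1 was 3.97, 4.78 and 4.69 with CpG and 2.88, 3.43 and 3.69 without, and that of Bach2 to Prdm1 was 2.56, 2.69 and 2.93 with CpG and 3.75, 3.86 and 4.30 without. The repressors therefore moved apart relative to Prdm1, by 1.15 for Bcl6 and by -1.24 for Bach2.

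Prdm1 belongs to the PRDM family of zinc finger proteins, and 14 genes with a PRDM symbol were in the files, 7 of them tested. Of the other 6 tested genes, named here after their values were seen, Prdm4 (log2FC 0.38) and Prdm15 (0.76) were called higher, and Prdm2 (-0.76), Prdm9 (-1.36) and Prdm10 (-1.01) lower. Prdm11 had a log2FC of -0.03 (limma with Benjamini-Hochberg FDR = 0.864). Over all tested genes, 37.6% were called higher and 36.7% lower.

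The other plasma cell genes were lower after CpG. Xbp1 was at 5.92, 6.02 and 6.01 log2 CPM with CpG in replicates 1, 2 and 3, and at 6.65, 6.65 and 6.75 without. Replicates were close to one another, and the groups were 0.62 apart. The log2FC of Xbp1 was -0.70 (standard error 0.06, limma with Benjamini-Hochberg FDR = 4.27e-06), or 1.62-fold lower expression. Gene level values do not separate the spliced form of Xbp1 mRNA, which IRE1 produces, from the unspliced form. Sdc1 was at 4.29, 4.47 and 4.20 with CpG and at 5.26, 5.03 and 5.46 without. The groups did not overlap, and the difference within a replicate number ran from -0.56 for replicate 2 to -1.27 for replicate 3. Sdc1 had a log2FC of -0.93 (95% confidence interval -1.20 to -0.67, limma with Benjamini-Hochberg FDR = 4.87e-05).

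Further genes of the plasma cell programme were also called in both directions. Of 17 listed genes, 16 were tested; 5 were called higher (37.6% of all tested genes were), 8 lower (36.7%) and 3 were not called, with a median log2FC of -0.19 (-0.40 to -0.12 under the alternatives) against 0.00 for all tested genes. Cd93, a surface protein of long-lived plasma cells and immature B cells, fell from 6.67 ± 0.22 to 4.13 ± 0.22 log2 CPM (SD of n = 3). Mzb1, a chaperone of immunoglobulin assembly, fell from 7.77 ± 0.07 to 5.54 ± 0.32 (SD, n = 3). Slamf7, a surface receptor of plasma cells, rose from 5.96 ± 0.11 to 8.15 ± 0.12, and Fam46c, the older symbol of Tent5c, from 4.57 ± 0.44 to 5.76 ± 0.22 (SD, n = 3). Creld2 was nearest to 0, with a log2FC of 0.02 (limma with Benjamini-Hochberg FDR = 0.826). Tnfrsf17, which encodes the receptor BCMA, was below the filter in this list, with a mean of -1.33.

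XBP1, whose mRNA is spliced by the sensor IRE1, and other factors of the endoplasmic reticulum stress response control genes for protein folding and secretion. Of 13 such genes, all tested, 7 were called higher (37.6% over all tested genes), 5 lower (36.7%) and 1 was not called, with a median log2FC of 0.20. Sdf2l1 rose from 3.28 ± 0.03 to 4.63 ± 0.04 log2 CPM (SD of n = 3), and Atf6, itself a sensor, had a log2FC of 0.91. The chaperone Hyou1 rose with a log2FC of 0.68, and the cochaperone Dnajc3 fell with one of -0.67. Ern1, which encodes IRE1, had a log2FC of -0.07 (limma with Benjamini-Hochberg FDR = 0.584).

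Syndecan-1 carries heparan sulfate chains, which are built by a set of Golgi enzymes. Of 9 syndecan and heparan sulfate genes, 8 were tested; 0 were called higher (37.6% over all tested genes), 5 lower (36.7%) and 3 were not called, with a median log2FC of -0.41; without both samples numbered 3 the lower count was 3. Sdcbp, which encodes the adaptor syntenin, fell from 7.95 ± 0.07 to 6.19 ± 0.31 log2 CPM (SD of n = 3). The polymerase genes Ext1 and Ext2 fell by 0.65 and 0.87 on the log2 scale, and B4galt7 had a log2FC of -0.46, whose call was lost without unstimulated replicate 2 (-0.33) and without both samples numbered 3 (-0.41). Xylt2 was nearest to 0, with a log2FC of 0.01 (limma with Benjamini-Hochberg FDR = 0.97). Among the other syndecans, Sdc2 was under the limit of detection with means of -3.82 with CpG and -4.22 without, and Sdc3 had a log2FC of 0.17 (FDR = 0.552). Sdc4 had a log2FC of -0.16 (FDR = 0.356) and was called without CpG-stimulated replicate 2 (-0.37, FDR = 0.00354) and without both samples numbered 2 (-0.32, FDR = 0.018), in limma with Benjamini-Hochberg adjustment.

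**Figure D3:**
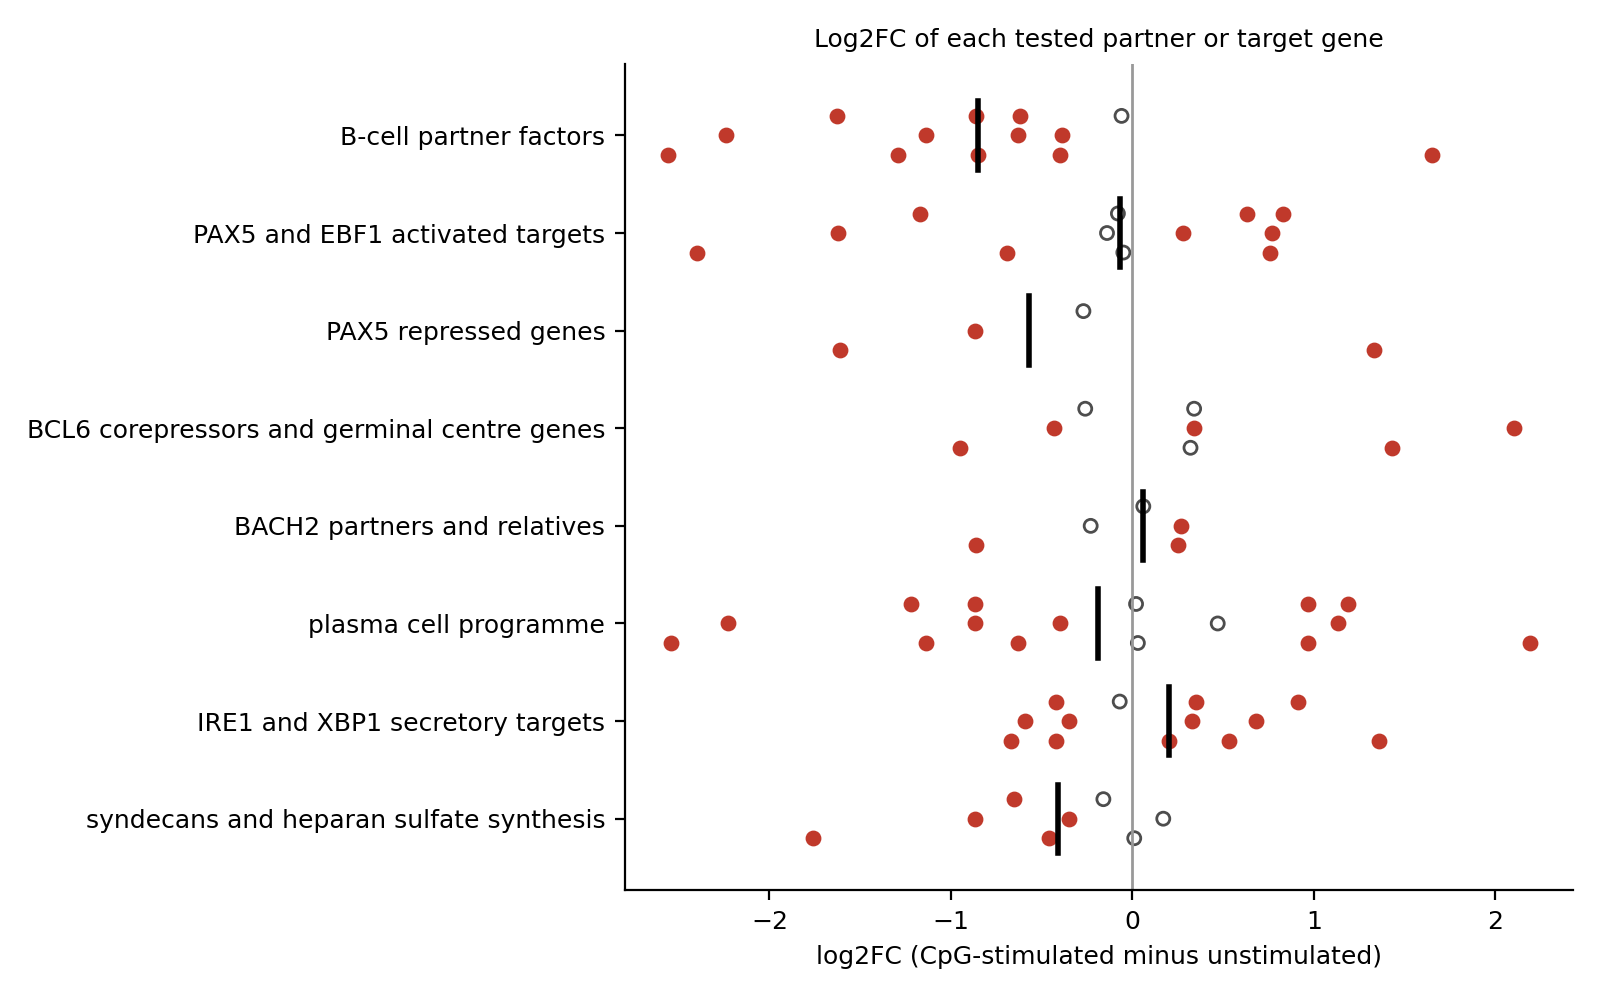
Log2FC of each tested gene in 8 lists of partners and targets of the 9 genes, with 3 samples per group; filled red points have an FDR under 0.05 from limma, open points do not, and black bars are the medians of 7 lists. Medians run from -0.85 for the B-cell partner factors to 0.20 for the secretory targets.

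Levels of different genes were compared per kb of the longest coding transcript. Without CpG the order of log2 CPM per kb was Pou2af1 (8.31), Ebf1 (6.07), Bach2 (5.60), Xbp1 (5.59), Bcl6 (4.96), Pax5 (4.95), Pou2f2 (4.26), Sdc1 (3.59) and Prdm1 (1.63). By this length Bach2 and Xbp1 did not differ beyond their spread, nor did Bcl6 and Pax5. With CpG the order was Pou2af1 (6.62), Bcl6 (5.99), Pou2f2 (5.75), Ebf1 (4.94), Xbp1 (4.89), Pax5 (4.62), Bach2 (4.23), Sdc1 (2.66) and Prdm1 (1.51). Bcl6 and Pou2f2 lay within the spread of Bcl6, and Ebf1 and Xbp1 within that of Ebf1. Pou2af1 stayed first and Prdm1 last, while Bcl6 and Pou2f2 moved up and Ebf1, Bach2 and Xbp1 moved down. Ranks depend on the length used. Over all annotated exons, Pou2f2 (5.53) was above Bcl6 (5.06) with CpG, and Pax5 (4.48) above Xbp1 (4.28) and Ebf1 (4.24), while without CpG Bach2 (5.44) was above Ebf1 (5.37) and also above Xbp1 (4.98), and Pax5 (4.80) above Bcl6 (4.04).

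In GENCODE M21 on GRCm38, Pax5 lies on the minus strand of chromosome 4 from 44524757 to 44710487, and Bach2 on the plus strand of the same chromosome from 32238804 to 32586108. Ebf1 (chromosome 11, 44617317 to 45008091) and Xbp1 (chromosome 11, 5520659 to 5525893) are both on the plus strand and differ in span, 391 kb against 5.24 kb. Bcl6 is on the minus strand of chromosome 16 from 23965052 to 23988852, Pou2f2 on the minus strand of chromosome 7 from 25087344 to 25179726, and Pou2af1 on the plus strand of chromosome 9 from 51213708 to 51240080. Prdm1 is on the minus strand of chromosome 10 from 44437177 to 44528501 and Sdc1 on the plus strand of chromosome 12 from 8771323 to 8793715. All are annotated as coding genes. Exons of another annotated gene overlap exons of 4 of the 9, namely Pax5, Bach2, Bcl6 and Pou2f2. Of these overlapping genes 5730488B01Rik, opposite Pax5, had values; it rose from a mean of 3.76 to 4.44 log2 CPM where Pax5 fell. The study's methods name a stranded library kit, but whether counting used the strand is not given in the sources used here, so reads of the pair may not be fully separated.

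RefSeq promoter windows (GRCm38.p6) were found for all 9 genes, 11 windows in all, and the 250 bases before each start were searched on both strands for 6 short motifs. These were the octamer ATTTGCAT (in 1.60% of the 32851 windows of all genes), the AP-1 and BACH core TGANTCA (6.75%), the NF-κB type motif GGNNTTTCC (4.93%), the EBF core CCCNNGGG (11.8%), the STAT and BCL6 type motif TTCNNNGAA (7.02%) and the core TGACGT, which CREB and XBP1 can bind (6.47%). No match overlapped another in the windows of the 9 genes. Printed here are windows with matches, of Bcl6, which rose, and of Pou2af1 and Bach2, which fell most. Each is given 5′ to 3′ on the strand of the gene with matches in capitals. Pou2f2 rose more than Bcl6, but its window held no match and is not printed. The Bcl6 window, chr16:23988853-23989102 on the minus strand, held TTCNNNGAA at position -118 from the start and the reverse complement of TGACGT at -73. The Pou2af1 window, chr9:51213440-51213689 on the plus strand, held TGACGT at -61. The Bach2 window, chr4:32417185-32417434 on the plus strand, lies before a start inside the gene and held TTCNNNGAA at -140 and GGNNTTTCC at -21. A match describes the letters in the window and does not show that a factor binds there.
Bcl6: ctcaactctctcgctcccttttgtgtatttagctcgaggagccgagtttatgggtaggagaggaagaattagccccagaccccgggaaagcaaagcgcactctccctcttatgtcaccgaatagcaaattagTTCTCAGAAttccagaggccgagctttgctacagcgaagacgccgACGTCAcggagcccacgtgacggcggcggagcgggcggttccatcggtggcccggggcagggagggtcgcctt
Pou2af1: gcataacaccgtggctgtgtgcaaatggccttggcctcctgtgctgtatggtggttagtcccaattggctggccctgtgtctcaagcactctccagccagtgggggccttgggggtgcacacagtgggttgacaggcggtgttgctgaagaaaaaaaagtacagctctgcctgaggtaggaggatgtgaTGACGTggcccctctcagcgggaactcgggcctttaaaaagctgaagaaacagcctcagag
Bach2: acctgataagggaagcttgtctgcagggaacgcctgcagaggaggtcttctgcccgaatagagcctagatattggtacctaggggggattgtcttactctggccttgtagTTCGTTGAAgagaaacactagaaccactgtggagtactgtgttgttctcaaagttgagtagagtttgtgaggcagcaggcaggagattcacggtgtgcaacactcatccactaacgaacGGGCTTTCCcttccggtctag

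Among the other windows, Prdm1 had TGANTCA at -48, Sdc1 had 3 matches to CCCNNGGG, a second window of Bcl6 had 3 to TTCNNNGAA, and 1 of 2 windows of Ebf1 had GGNNTTTCC at -159. Pax5, Pou2f2 and Xbp1 had no match to these letters in their windows, and the octamer was found in none of the 11.

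For each called gene, the tested genes with the most similar pattern were found by the root mean square difference over the 6 samples, after each gene was centred on its mean. The nearest to Pou2f2 were Wash (0.0415), Adsl (0.0478) and Prdx3 (0.0538), and the nearest to Pou2af1 were Ifi203 (0.048), Zfp101 (0.0501) and Sptbn1 (0.0524). Ebf1 was closest to Chd2 (0.0236), Inpp5a (0.0311) and 1810013L24Rik (0.0332), and Bach2 to Lclat1 (0.0527), Pcyox1 (0.0543) and Il9r (0.0575). Bcl6, whose stimulated samples were more spread, had more distant neighbours, Mir684-1 (0.063), B3gnt2 (0.078) and Gm13546 (0.0797). Pax5 was closest to Nol7 (0.0234), Xbp1 to Stag2 (0.0245) and Sdc1 to Zfp260 (0.0626). With 6 samples in 2 groups, such likeness reflects mainly a similar log2FC.

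Markers of cell types were read in the same samples; in summed levels, the CPM of no read were subtracted from each gene. All 7 B cell markers were tested and had means above 10 reads' worth, led by Cd79b at 9.48 log2 CPM; their summed level was 2770, 3140 and 3150 CPM in CpG-stimulated replicates 1, 2 and 3, and 3720, 3690 and 4330 CPM in the unstimulated ones, with 3 called higher and 3 lower (37.6% and 36.7% over all tested genes). The 7 plasma cell markers summed to 3260, 2990 and 3080 CPM with CpG and to 2250, 2220 and 2500 CPM without. They were led by Irf4 at 10.69, which B cells also express. Most of the sum with CpG was Irf4, which rose from 10.20 ± 0.08 to 11.17 ± 0.11 log2 CPM (SD, n = 3). Of the 6 tested, 2 were called higher (37.6% over all tested genes), Irf4 and Slamf7. Another 4 were called lower (36.7%), namely Igj, Mzb1, Sdc1 and Bhlha15. Of 6 matched T cell markers, 5 had means at or under the limit of detection, the CD3 genes among them, and Lck was at 6.72; the list summed to 134, 141 and 124 CPM with CpG and 90.5, 91.4 and 70.9 CPM without. Of the 4 NK cell markers, Klrb1c was at -0.84, 0.23 and 0.23 log2 CPM with CpG, above the limit of detection, and at -4.27, -4.79 and -4.90 without; the other 3 were under the limit in both groups, and the list summed to 0.607, 1.15 and 1.22 CPM with CpG and to 0.0214 CPM or less without. The 5 matched myeloid markers, led by Emr1 at 2.75, summed to 9.5, 15.0 and 13.8 CPM with CpG and to 6.42, 11.7 and 12.6 CPM without. Emr1 was called higher (log2FC 0.83), though not without both samples numbered 2. Csf1r, which passed the filter through the unstimulated samples only, was called lower (-1.61), though not without unstimulated replicate 3. With log2(CPM + 1) the log2FC of Csf1r was smaller in size, -0.48, and still called. Lyz2 (-0.21) and Itgam (-0.07) were not called. S100a8, not tested, had means of -4.07 with CpG and -1.39 without.

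The 4 markers of plasmacytoid dendritic cells summed to 134, 130 and 127 CPM with CpG and to 261, 252 and 252 CPM without. Most of this was Tcf4, which B cells express too and which was called lower (log2FC -1.24), whereas Bst2 was called higher (0.92). Ccr9 was called lower too (-0.94), but not in 5 of 15 alternatives. Its log2FC was -0.51 with log2(CPM + 1) and -0.64 without both samples numbered 3. Siglech was under the limit of detection on average, with means of -2.66 with CpG and -3.63 without. The 5 erythroid markers, led by Beta-s, the older symbol of Hbb-bs, summed to 384, 4910 and 611 CPM in CpG-stimulated replicates 1, 2 and 3, and to 404, 3840 and 499 CPM in the unstimulated ones. Replicate 2 was thus the highest in both groups, and Hba-a1 was at the value of no read in every sample. Of the 4 erythroid markers tested 0 were called, where 37.6% of all tested genes were called higher and 36.7% lower. With the replicate number as a block Beta-s was called higher (log2FC 0.21) and Slc4a1 lower (-0.47). That fit called 4390 of the 11233 tested genes higher and 4287 lower. The part of any of these markers in the results was not tested.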

How the data were processed

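The authors trimmed reads with Trim Galore (0.6.5), aligned them to mm10 with STAR (2.6.1a), obtained gene counts with featureCounts, and used voom after quantile normalization. Deposited files hold log2 CPM, which were tested without a further transformation; the count test planned for files of counts was not needed. The groups were compared in R 4.3.3 by limma 3.58.1, using lmFit and a trended eBayes, and p-values were adjusted over 11233 genes by the Benjamini-Hochberg method. An exact permutation test of 3 samples against 3 cannot give a p under 0.1 and was not used.

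Deviations from group means correlated at 0.435, 0.224 and 0.300 between samples of the same replicate number and at -0.281 to 0.0279 otherwise, so the numbers were treated as pairs in an alternative fit. Of 4421 genes with a value under that of no read, 2279 had such a value in both samples of a number. The values thus seem to carry a shift by number, whose origin is not given in the sources used here. Its part in these correlations was not tested.

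The members and lists were chosen with earlier results of these data known. Of each list, up to 4 called genes with a mean of at least 3 and the largest log2FC in size were named, and the gene nearest to 0. Of 120 listed genes, 5 were matched by older symbols and 11 were not matched. A pair of genes of the BCL6 list are not reported here; its counts leave them out, and no median is given for it. Alternatives covered the filter, the block, log2(CPM + 1), the variance trend, median centring and left-out samples.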

Additional observations from a re-analysis of the deposited data

How the results depend on the processing

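Of 135 values of the 9 genes under 15 alternatives, 134 kept their direction and their call. The exception was Prdm1, which is not called and ran from -0.282 without unstimulated replicate 3 to 0.06 without unstimulated replicate 1; its FDR ran from 0.163 to 0.949 in limma with Benjamini-Hochberg adjustment. Bcl6 ran from 0.89 to 1.16 and Sdc1 from -1.12 to -0.77, so their side of a log2FC of 1 or -1 depends on the samples used. With the replicate number as a block, 4390 genes were called higher and 4287 lower, and of the 9 genes 2 and 6 again. Counts over all genes stayed within 1.5 times. Of 1138 values of 76 other tested genes named in the text, 1079 kept direction and call, 15 lost the call (Bach1, Mafg, B4galt7, Ccr9, Csf1r and Emr1), 8 gained it (Notch1, Sdc4, Itgam, Beta-s and Slc4a1), and 36 changed sign, all in genes that are not called and with samples left out. Those ranges were -0.916 to 1.25 for Beta-s, -1.206 to 0.373 for Slc4a1, -0.926 to 0.502 for Itgam, -0.615 to 0.116 for Lyz2, -0.023 to 0.083 for Creld2, -0.141 to 0.013 for Ern1, -0.11 to 0.02 for Foxp1, -0.235 to 0.06 for Lef1, -0.072 to 0.174 for Maff, -0.148 to 0.053 for Prdm11, -0.002 to 0.41 for Sdc3, -0.367 to 0.005 for Sdc4 and -0.084 to 0.166 for Xylt2. Of 345 list counts and medians, 23 moved: the higher count of BACH2 partners fell from 2 to 1, the lower counts of the BCL6 list and of PAX5 repressed genes from 2 to 1 and that of the syndecan list from 5 to 3, and medians ran from -0.07 to 0.23 for BACH2 partners, from -0.65 to -0.13 for PAX5 repressed genes and from -0.40 to -0.12 for the plasma cell programme. The median of PAX5 and EBF1 targets (-0.14 to 0.02) also crossed 0. The causes were not tested. Leaving out both samples numbered 1 or 2 was chosen after seeing the data.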
